A study of Mus musculus with 17 samples.

Results

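The 49 genes described here act in mitosis, and were taken by gene name from a counts table of 55536 genes: kinases and cyclins of mitotic entry, the chromosomal passenger complex, the spindle checkpoint, the anaphase machinery, centromere and kinetochore proteins, spindle proteins, cytokinesis proteins, and the chromosome proteins Mki67 and Top2a. All 49 were found, and all 49 were among the 15352 genes with enough counts to be tested. RNA was sequenced from B cells sorted from mouse spleen, in 17 libraries. There were 3 libraries of naive, 3 of activated and 2 of germinal centre (GC) B cells from mice with a p52 knock-in (p52ki), and 3 each of naive, activated and GC B cells from wild-type (WT) mice. Nfkb2 encodes p52, a subunit of NF-kB. The sources used here do not give how the knock-in allele differs from the normal gene, the sorting gates, the stimulus or the strain, age and sex of the mice. Replicates are numbered 2, 3 and 5 in p52ki (2 and 5 in GC cells) and 1, 3 and 4 in WT. No label says that replicates came from separate mice, and p-values then cover only how these samples vary, which may be technical. The libraries are numbered 19 to 30 in p52ki and 1 to 12 in WT, so that an effect of library order and one of genotype cannot be told apart.

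In mitosis CDK1 with its cyclins drives entry, the kinetochores attach each chromosome to the spindle, the checkpoint holds the anaphase-promoting complex until all are attached, and the cell is then split by cytokinesis. Most of these genes are transcribed in G2 and M phase and are low in resting cells. Naive B cells rest, whereas GC B cells are among the fastest dividing cells of the body, cycling in the dark zone of the germinal centre before selection in the light zone. In bulk RNA, fewer dividing cells and less mitotic RNA per dividing cell cannot be told apart.

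Total counts were 4067281 to 10036347 per library. Of the genes tested, 30.8% and 22.4% had no count in p52ki GC replicates 2 and 5 and 31.7% had none in WT GC replicate 3, against 0.918% to 5.25% in the other 14 libraries. Summed markers also varied between the GC groups, with overlap for some lists. The 5 naive B cell markers (such as Ighd and Fcer2a) summed to 1500 to 1750 CPM (counts scaled to the library total) in p52ki GC cells and 558 to 796 in WT GC cells, 6 GC markers (such as Bcl6 and S1pr2) to 782 to 1560 and 1230 to 2040 (235 at most in naive and activated cells), and 6 erythroid markers to 326 to 372 (Klf1 and Alas2 at 0) and 48.6 to 233 (Klf1 at 0). The 5 general B cell markers summed to 11100 to 14700 CPM in p52ki GC cells and 8850 to 10500 in WT GC cells, and the 6 plasma cell markers to 2720 to 2780 (Prdm1 at 0) and 2680 to 5950. The 6 T cell markers reached at most 69.0 CPM in p52ki (Cd3g, Cd4 and Cd8a at 0) and 124 in WT, the 4 NK cell markers 32.9 (Ncr1 and Klrb1c at 0) and 4.67, and the 9 myeloid markers 37.9 (7 of the 9 at 0) and 34.9 (Mpo at 0). The part of these differences in the results on GC cells was not tested.

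Most mitosis genes rose at the GC stage in both genotypes, and their summed level was lower in p52ki than in WT GC cells. Their summed CPM was 528, 571 and 476 in p52ki naive replicates 2, 3 and 5, and 536, 560 and 558 in WT naive replicates 1, 3 and 4. In activated cells the sums were 736, 988 and 729 in p52ki, and 1140, 814 and 1180 in WT. GC cells had 3440 and 4750 in p52ki replicates 2 and 5, against 9700, 5800 and 9680 in WT replicates 1, 3 and 4. The mean sum in GC cells was 5.01 times that in activated cells in p52ki and 8.04 times in WT, and the p52ki GC mean was 0.487 of the WT GC mean. No library of p52ki GC cells reached the lowest WT GC library, although WT GC replicate 3 lay closer to p52ki replicate 5 than to the other two WT libraries.

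**Figure D1:**
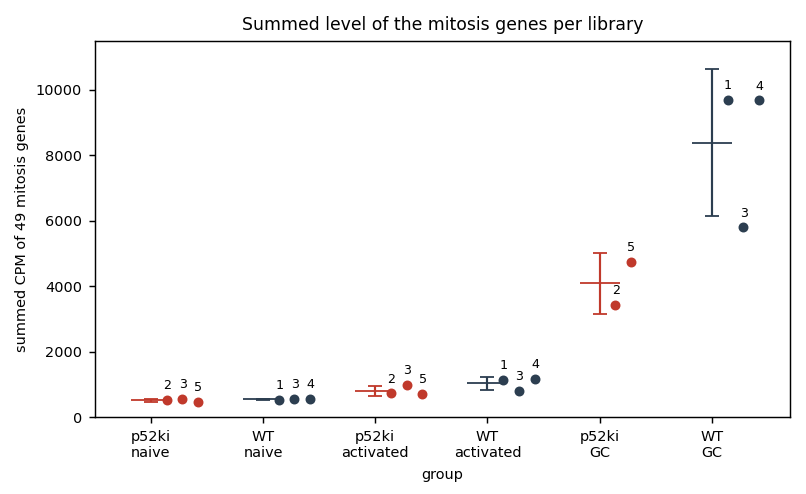
Summed CPM of the 49 mitosis genes in each library (points, numbered by replicate), with group means and SD (bars); p52ki is left of WT at each stage. The p52ki GC libraries reach 3440 and 4750, below the WT GC libraries at 5800 to 9700.

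**Figure D2:**
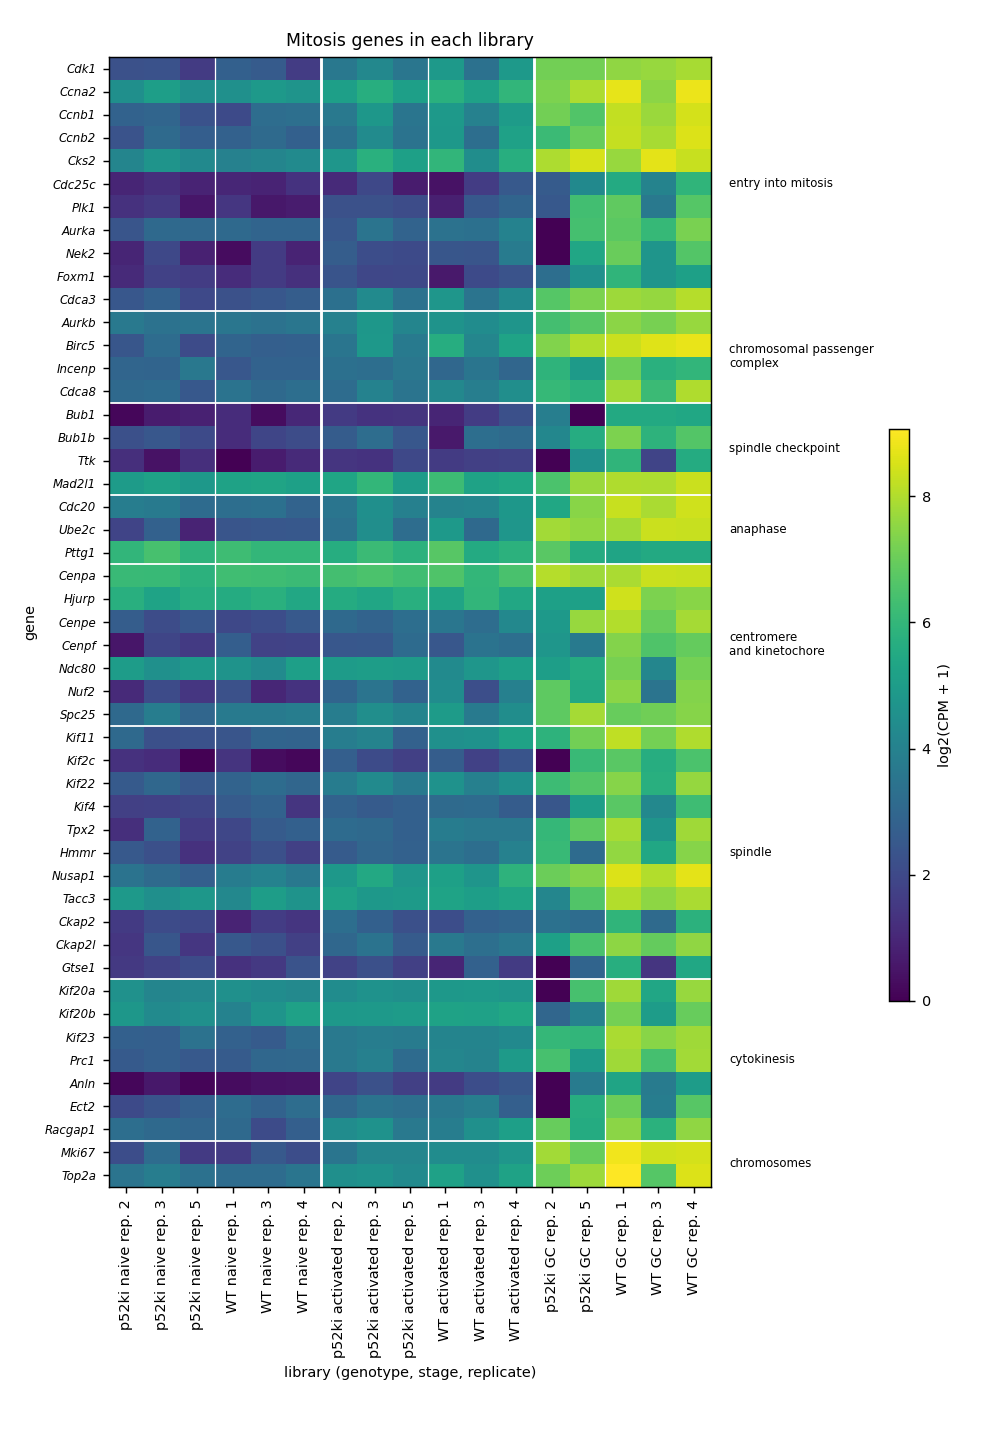
log2(CPM + 1) of each mitosis gene (rows, by role) in each of the 17 libraries (columns). Most rows are brighter at the GC stage. Pttg1 is brighter than the earlier libraries of its genotype only in p52ki GC replicate 2. Hjurp is brighter in all 3 WT GC libraries and Kif20b in WT GC replicates 1 and 4, and 8 genes are at 0 in p52ki GC replicate 2.

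Because these genes moved together at the GC stage, their promoters were read for the sequence elements known from mitotic genes: TTTGAA, the core of the cell cycle genes homology region (CHR) to which the MuvB complexes with FOXM1 and B-MYB bind, and CCAAT, the box bound by NF-Y. RefSeq promoters of build GRCm38.p6, 250 bases before to 50 bases after the start site, were found for 42 of the 49 genes (45 promoters). Either element was counted on both strands. TTTGAA stood in 71.1% of the members' promoters, against 17.9% of all 32851 promoters of that length, and lay within 50 bases of the start site in 64.4%, against 4.94%. At least 2 CCAAT boxes stood in 53.3%, against 11.7%. Shown are the promoters of Hjurp, Kif20b and Kif23, the members with the smallest p-values between genotypes in GC cells, of Ube2c, which carries 6 CCAAT boxes, 2 of them overlapping, and of Pttg1, the member that was not higher in GC cells of WT mice. Capitals mark TTTGAA and CCAAT or their reverse complements, and each sequence runs 5′ to 3′ on the strand of its gene.
Hjurp (chr1:88277530-88277829, minus strand): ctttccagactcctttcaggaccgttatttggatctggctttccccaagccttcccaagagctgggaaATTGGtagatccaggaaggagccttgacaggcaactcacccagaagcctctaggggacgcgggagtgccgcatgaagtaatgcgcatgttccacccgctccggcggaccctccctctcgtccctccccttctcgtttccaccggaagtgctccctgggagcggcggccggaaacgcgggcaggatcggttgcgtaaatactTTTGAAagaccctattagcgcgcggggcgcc
Kif20b (chr19:34922108-34922407, plus strand): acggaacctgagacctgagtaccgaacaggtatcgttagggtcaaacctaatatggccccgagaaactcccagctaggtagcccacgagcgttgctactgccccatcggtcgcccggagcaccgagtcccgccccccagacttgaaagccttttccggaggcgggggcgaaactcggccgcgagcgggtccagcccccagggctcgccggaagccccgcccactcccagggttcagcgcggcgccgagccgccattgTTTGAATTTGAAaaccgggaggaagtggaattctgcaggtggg
Kif23 (chr9:61946750-61947049, minus strand): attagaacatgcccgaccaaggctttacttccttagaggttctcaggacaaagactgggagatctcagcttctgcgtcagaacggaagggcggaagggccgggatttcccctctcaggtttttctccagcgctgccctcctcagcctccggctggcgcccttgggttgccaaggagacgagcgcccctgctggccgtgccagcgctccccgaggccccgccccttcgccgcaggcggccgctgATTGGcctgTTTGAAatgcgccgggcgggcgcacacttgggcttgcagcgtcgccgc
Ube2c (chr2:164769679-164769978, plus strand): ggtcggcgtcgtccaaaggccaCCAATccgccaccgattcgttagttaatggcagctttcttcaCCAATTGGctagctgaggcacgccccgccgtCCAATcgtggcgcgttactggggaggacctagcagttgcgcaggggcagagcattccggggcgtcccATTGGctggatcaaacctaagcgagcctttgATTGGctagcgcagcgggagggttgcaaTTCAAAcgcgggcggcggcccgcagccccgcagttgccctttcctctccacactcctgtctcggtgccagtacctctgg
Pttg1 (chr11:43425932-43426231, minus strand): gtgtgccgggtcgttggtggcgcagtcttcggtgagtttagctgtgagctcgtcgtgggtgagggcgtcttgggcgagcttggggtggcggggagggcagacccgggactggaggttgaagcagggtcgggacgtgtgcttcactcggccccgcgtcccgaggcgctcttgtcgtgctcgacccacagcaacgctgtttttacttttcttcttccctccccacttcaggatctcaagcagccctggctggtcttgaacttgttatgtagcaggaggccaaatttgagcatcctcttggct
Hjurp and Kif23 have an element of each kind, Kif20b has a pair of TTTGAA copies next to each other 7 and 13 bases after the start and no CCAAT, and Pttg1 has neither in this window. The Pttg1 window lies wholly inside the gene model, which on the minus strand begins at 43426251. The bases before that beginning are not in the window shown, and elements there were not examined in it. A match is a description of letters, not a bound site. The median log2 difference between p52ki GC and WT GC cells was -1.44 over 30 members with TTTGAA and -1.08 over 12 without it, and in WT the median change from activated to GC cells was 3.31 and 3.3.

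Between naive and activated cells most mitosis genes were higher in activated cells, but few passed the test. In p52ki 48 of 49 changes were positive with a median log2 change of 0.97, and 1 gene was called higher, against 0.0847% of all genes tested called higher and 0.0326% lower. In WT 48 of 49 were positive too, with a median of 1.4, and 4 were called higher, against 0.254% of all genes. The median of all genes was 0 in both genotypes. The gene called in p52ki was Nusap1, which bundles spindle microtubules, with 27.8, 43.5 and 26.1 CPM in activated cells, against 9.86, 7.87 and 5.7 in naive cells (log2 2.06, SE 0.334, adjusted p = 0.0244). In WT, Mki67, which coats mitotic chromosomes and is the standard proliferation marker, had 20.5, 20.5 and 25.9 CPM in activated cells, against 2.08, 4.79 and 3.42 in naive cells (log2 2.70, SE 0.455, adjusted p = 0.0166). Birc5 (survivin, of the passenger complex) changed by 2.51 (SE 0.457, adjusted p = 0.0283), Cdk1 by 2.33 (SE 0.452, adjusted p = 0.0399) and Cdca3, a trigger of mitotic entry, by 2.01 (SE 0.4, adjusted p = 0.0475). The library groups of activated and naive cells did not overlap for 35 members in p52ki, against 10.8% of all genes higher and 8.12% lower, and for 32 in WT, against 9.46% and 9.35%, all members higher in activated cells. The counts of calls were small and moved with the test: leaving out 1 library at a time gave 0 to 1 in p52ki and 0 to 7 in WT, while DESeq2 called 7 and 17. Of all genes DESeq2 called 0.769% higher in p52ki and 1.62% in WT. No member passed the test of the difference between these 2 changes, nor any other gene (0% of all genes; DESeq2 also called 0 members), and 0 members had an unadjusted p under 0.05. The largest of these changes that did not pass in p52ki were Anln, the actin-binding anillin of the cleavage furrow, at 3.59 (SE 1.12, adjusted p = 0.518), and Kif2c, a microtubule-depolymerising kinesin, at 2.07 (SE 1.32, adjusted p = 1). Anln had at most 0.492 CPM in p52ki naive cells, close to the limit that a count of 0 allows.

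From activated to GC cells, 33 of 49 members rose in p52ki, 67.3% against 6.34% of all genes tested, and 41 of 49 rose in WT, 83.7% against 5.8%. None was called lower in either genotype, whereas 19.3% of all genes were called lower in p52ki and 7.75% in WT. The median log2 change was 2.41 in p52ki and 3.32 in WT, with medians of -0.41 and -0.13 over all genes. Without p52ki GC replicate 5, 29 members were called higher and 6 lower in p52ki, against 7.81% and 24.8% of all genes. Libraries of the 2 stages did not overlap, with GC cells higher, for 34 members in p52ki (15.2% of all genes) and 43 in WT (11.7%).

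Of the 11 genes of mitotic entry, 9 rose in p52ki and 9 in WT. Cdk1, the kinase that starts mitosis, had 141 and 139 CPM in p52ki GC cells, against 11.3, 17.6 and 10.7 in p52ki activated cells (log2 3.41, SE 0.481, adjusted p = 0.000328). It had 188, 200 and 234 CPM in WT GC cells, against 28, 9.46 and 28.1 in WT activated cells (log2 3.25, SE 0.455, adjusted p = 0.000276). GC libraries lay above all activated libraries in both genotypes, and the 2 changes differed by 0.16 (SE 0.626, adjusted p = 0.918). Cyclin B1 (Ccnb1) changed by 2.85 in p52ki (SE 0.488, adjusted p = 0.00124) and 3.55 in WT (SE 0.475, adjusted p = 0.000199). Foxm1, the transcription factor of many G2 and M genes, changed by 2.26 (SE 0.678, adjusted p = 0.0254) and 3.94 (SE 0.68, adjusted p = 0.00123). Aurka and Nek2, kinases of the centrosome, were the 2 that passed in neither genotype. Aurka had 0 and 84.0 CPM in p52ki GC cells and 108, 66.0 and 149 in WT GC cells, all 3 above the 9.13 to 15.4 of WT activated cells (log2 3.24, SE 1.04, adjusted p = 0.052).

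All 4 members of the chromosomal passenger complex, which corrects kinetochore attachments and later steers cytokinesis, rose in both genotypes. The kinase Aurkb changed by 2.26 in p52ki (SE 0.294, adjusted p = 0.000167) and 2.92 in WT (SE 0.282, adjusted p = 2.31e-05), and Birc5 by 3.65 (SE 0.488, adjusted p = 0.000211) and 3.48 (SE 0.462, adjusted p = 0.000197). Of the 4 checkpoint genes 2 rose in p52ki and 3 in WT, among them Mad2l1, which binds and holds CDC20, with 1.73 in p52ki (SE 0.376, adjusted p = 0.00528) and 2.43 in WT (SE 0.358, adjusted p = 0.000408). Of the anaphase genes, Cdc20, the activator of the anaphase-promoting complex, changed by 2.79 in p52ki (SE 0.485, adjusted p = 0.00139) and 3.91 in WT (SE 0.481, adjusted p = 0.00011). The ubiquitin-conjugating enzyme Ube2c had the largest rise of all members in p52ki, 4 (SE 0.629, adjusted p = 0.000713), against 3.79 in WT (SE 0.598, adjusted p = 0.00067). Part of the exons of Ube2c (22.8% of their length) overlaps Tnnc2, and whether counting used strand is not given in the sources used here.

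Pttg1, or securin, the inhibitor of separase that is destroyed at anaphase, stood apart from the other members. It had 61.7, 84.3 and 56.5 CPM in p52ki naive cells and 75.8, 62.4 and 62.8 in WT naive cells, and 49.2, 71.7 and 56.2 in p52ki activated cells and 105, 45.9 and 55.4 in WT activated cells. In GC cells it had 106 and 47.2 CPM in p52ki, against 38.5, 44.8 and 44.6 in WT. So WT GC libraries were all below WT activated ones, and p52ki GC libraries overlapped their activated ones. Neither change passed the test: it was 0.37 in p52ki (SE 0.378, adjusted p = 0.499), with the opposite sign (-0.33) without p52ki GC replicate 2, and -0.69 in WT (SE 0.343, adjusted p = 0.219). Per kilobase of exon, Pttg1 was the highest member in WT naive cells, at 33.5 CPM per kb, and ranked 31 of 49 in WT GC cells, at 21.3; in p52ki GC cells it was at 38.2 and ranked 10.

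Of the 7 centromere and kinetochore genes 5 rose in p52ki and 7 in WT. Cenpa, the histone variant that marks centromeres, changed by 1.53 in p52ki (SE 0.223, adjusted p = 0.000396) and 1.85 in WT (SE 0.208, adjusted p = 5.7e-05). Spc25, a subunit of the NDC80 complex that grips microtubules, changed by 3.33 (SE 0.419, adjusted p = 0.000136) and 2.76 (SE 0.39, adjusted p = 0.00029). The 2 that did not pass in p52ki were Hjurp and Ndc80, at 0.37 (SE 0.598, adjusted p = 0.681), against 1.95 in WT (SE 0.555, adjusted p = 0.0297). Of the 11 spindle genes 6 rose in p52ki and 10 in WT. Kif11, the motor that pushes the spindle poles apart, changed by 3.06 in p52ki (SE 0.486, adjusted p = 0.000768) and 3.05 in WT (SE 0.459, adjusted p = 0.000473). Tpx2, which activates Aurora A on the spindle, changed by 3.61 (SE 0.731, adjusted p = 0.0037) and 3.71 (SE 0.7, adjusted p = 0.0024). Of the 7 cytokinesis genes 3 rose in p52ki (Kif23, Prc1 and Racgap1) and 4 in WT, these and Anln. Mki67 and Top2a, the topoisomerase that untangles chromosomes, rose in both genotypes: Mki67 by 3.55 in p52ki (SE 0.472, adjusted p = 0.000205) and 4.12 in WT (SE 0.462, adjusted p = 5.7e-05), and Top2a by 3 (SE 0.474, adjusted p = 0.000733) and 3.43 (SE 0.458, adjusted p = 0.000198).

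Between the genotypes in GC cells, 10 of 49 members were lower in p52ki and none was higher. That is 20.4% of the members, against 12.2% of all genes tested called lower and 3.75% called higher. Of all 49 differences 47 were negative, with a median of -1.35, against a median of -0.32 over all genes tested, and 23 had an unadjusted p under 0.05. Both p52ki libraries lay below all 3 WT libraries for 22 members, against 15.4% of all genes, and above all of them for 1, Pttg1, against 9.45%. The 10 genes were Hjurp and Cenpf at the centromere and kinetochore, Kif23, Kif20b and Prc1 of cytokinesis, Tacc3 and Nusap1 of the spindle, Cdca8 and Aurkb of the passenger complex, and cyclin B2 (Ccnb2). None of the 4 checkpoint genes, the 3 anaphase genes or Mki67 and Top2a passed.

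Hjurp, the chaperone that deposits the centromeric histone CENP-A, had the smallest p. It had 34.2 and 34.8 CPM in p52ki GC replicates 2 and 5, against 339, 153 and 175 in WT GC replicates 1, 3 and 4 (log2 -2.69, SE 0.365, adjusted p = 0.000271). Before the GC stage it was flat, at 51.1, 37.4 and 49 CPM in p52ki naive cells and 47.0, 53.3 and 42.7 in WT naive cells, and at 46.3, 39.9 and 52.2 in p52ki activated cells and 38.5, 60.9 and 42.7 in WT activated cells. The p52ki GC libraries were thus below all 6 p52ki naive and activated libraries, and the WT GC libraries above all 6 of WT. Cenpa, the histone that HJURP handles, had 264 and 211 CPM in p52ki GC cells, against 241, 322 and 319 in WT GC cells (log2 -0.31, SE 0.227, adjusted p = 0.363). Hjurp shares no exon bases with another gene in the annotation.

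Kif20b, a kinesin of late cytokinesis, had 7.03 and 14.8 CPM in p52ki GC cells, against 143, 31.0 and 124 in WT GC cells (log2 -3.18, SE 0.602, adjusted p = 0.00355). It too was expressed before the GC stage, at 26.8, 19.2 and 22.4 CPM in p52ki naive cells and 15.2, 24.7 and 35.7 in WT naive cells, and at 27.5, 28.2 and 30.1 in p52ki activated cells and 36.4, 35.7 and 41.2 in WT activated cells. Both p52ki GC libraries lay below every earlier p52ki library. WT GC replicates 1 and 4 lay above every earlier WT library, and replicate 3 did not.

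Kif23, which with Racgap1 forms the centralspindlin complex, had 64.2 and 61.2 CPM in p52ki GC cells, against 238, 175 and 218 in WT GC cells (log2 -1.75, SE 0.321, adjusted p = 0.00282). Its groups were far apart, whereas its partner Racgap1 had 123 and 47.1 CPM in p52ki and 179, 55 and 188 in WT, which overlap (log2 -0.73, SE 0.573, adjusted p = 0.401). Prc1, which bundles the microtubules of the central spindle, had 85.5 and 29.7 CPM in p52ki GC cells, against 216, 83.5 and 224 in WT (log2 -1.60, SE 0.514, adjusted p = 0.0467); its groups overlap by 1 library, and 11.1% of its exon length overlaps Rccd1.

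Cenpf, a large kinetochore protein, had 26.4 and 12.3 CPM in p52ki GC cells, against 164, 94.5 and 121 in WT GC cells (log2 -2.71, SE 0.669, adjusted p = 0.0154). Tacc3, which crosslinks the fibres between kinetochores and poles, had 16.7 and 96.5 CPM in p52ki, against 260, 184 and 242 in WT (log2 -2.01, SE 0.513, adjusted p = 0.018). The p52ki libraries of Tacc3 differ widely but both lie below WT. Nusap1 had 130 and 165 CPM in p52ki, against 388, 262 and 412 in WT (log2 -1.27, SE 0.365, adjusted p = 0.03).

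Ccnb2 had 71.0 and 123 CPM in p52ki GC cells, against 306, 237 and 385 in WT GC cells (log2 -1.67, SE 0.518, adjusted p = 0.0407). Cdca8 (borealin) had 65.9 and 56.4 CPM in p52ki, against 221, 71.5 and 252 in WT (log2 -1.57, SE 0.475, adjusted p = 0.0371). Aurkb had 80.9 and 104 CPM in p52ki, against 180, 147 and 204 in WT (log2 -0.94, SE 0.302, adjusted p = 0.0463). In all 3 genes the groups did not overlap, though Cdca8 in WT replicate 3 lay near the p52ki libraries.

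Among the landmarks that did not pass, Mki67 had 222 and 123 CPM in p52ki GC cells, against 470, 338 and 357 in WT GC cells, with no overlap (log2 -1.17, SE 0.471, adjusted p = 0.0988). Cdc20 had 40.9 and 175 CPM in p52ki, against 315, 238 and 339 in WT, also with no overlap (log2 -1.46, SE 0.502, adjusted p = 0.0601). Top2a had 134 and 210 CPM in p52ki, against 535, 102 and 382 in WT, where WT replicate 3 was the lowest of the 5 libraries (log2 -0.98, SE 0.479, adjusted p = 0.169). WT replicate 3 was likewise the lowest for Ndc80 and Tpx2, and for Plk1, the polo kinase of mitotic entry, it had 11.6 CPM, against 4.6 and 79.6 in p52ki and 116 and 100 in WT replicates 1 and 4. Cks2, a small partner of CDK1, overlapped between the genotypes, at 247 and 363 CPM in p52ki, against 204, 412 and 318 in WT (log2 -0.03, SE 0.415, adjusted p = 0.982), and was the highest member per kilobase in both GC groups. Besides Pttg1 (log2 0.84, SE 0.377, adjusted p = 0.135), Spc25 had the other positive difference, 0.25 (SE 0.404, adjusted p = 0.706).

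**Figure D3:**
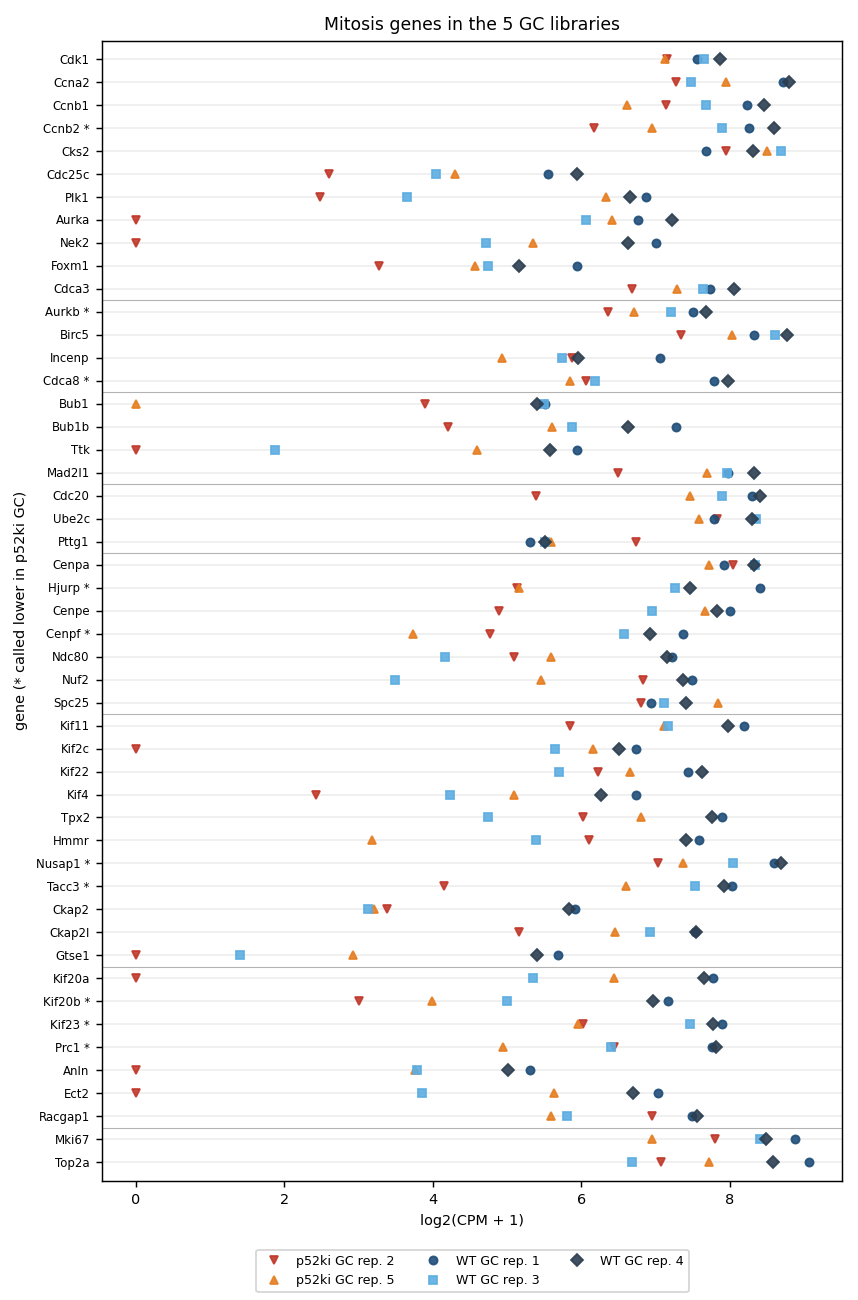
log2(CPM + 1) of each mitosis gene in the 2 p52ki GC libraries (triangles) and 3 WT GC libraries (circles, squares and diamonds), with genes called lower in p52ki marked by an asterisk. WT replicate 3 (squares) lies below both other WT libraries in 41 of 49 genes.

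The 5 GC libraries did not fall into tight groups. WT replicate 3 lay below both other WT libraries in 41 members, and by over 4-fold below the lower one in 12. Both p52ki libraries lay below WT replicates 1 and 4 in 44 members, but below WT replicate 3 in 25, and above it in 7. The p52ki libraries differed from each other by over 4-fold in 15 members, and their rank correlation over the 49 members was 0.641, against 0.928 between WT replicates 1 and 4. WT replicate 3 and the p52ki libraries are the 3 with few detected genes, and 2 further fits bear on this. Both fits rest largely on WT replicate 3, with 11232 detected genes against 18449 and 19135 in WT replicates 1 and 4. They are therefore not 2 separate checks. With WT replicate 3 as the lone WT GC library, which is assumed to vary like the other groups, the median member difference was -0.46 and 3 members were called lower (6.12%, against 8.19% of all genes): Hjurp (-2.14, adjusted p = 0.000349), Kif23 (-1.47, adjusted p = 0.0156) and Kif20b (-1.49, adjusted p = 0.044). With detected genes as a covariate the median was -0.66 and 5 were called lower (10.2%, against 9.02% of all genes), these 3 with Cenpf and Tacc3. Differences turned positive for 14 members in the first of these fits, the largest at 2.95 for Nuf2, a partner of NDC80, and for 10 in the second, the largest at 1.64, also for Nuf2. None of these passed the test.

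The same 5 genes, Hjurp, Kif23, Kif20b, Cenpf and Tacc3, stayed called when any 1 of the 5 GC libraries was left out, and the other 5 did not. The count of calls was 5 without WT replicate 1, 5 without WT replicate 4, 21 without WT replicate 3, 8 without p52ki replicate 2 and 24 without p52ki replicate 5, 1 of these last higher. The share of all genes called lower moved too, in the same order 7.93%, 8.7%, 20.2%, 9.48% and 19.8%, so that the 5 members (10.2%) without WT replicate 1 or 4 were near that of genes in general. When the GC libraries were fitted alone, so that only their own spread was used, no gene of 12620 tested was called, and limma with sample quality weights called none of the members. DESeq2 called 14 members lower (28.6%), against 17.6% of all genes called lower and 7.95% called higher. The fit over 17 libraries assumes that GC cells vary as the other groups do, and its SEs may be too low where they vary more.

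In p52ki GC replicate 2, 8 of 49 members had no count: Aurka, Nek2, Ttk, Kif2c, Gtse1, Kif20a, Anln and Ect2. Of all genes tested, 30.8% had none in that library. In replicate 5 only Bub1, a checkpoint kinase, had none, against 22.4% of all genes. In WT GC cells none of the 49 was at 0, although 31.7% of all genes were in WT GC replicate 3. A count of 0 allows up to 3 counts, that is 0.727 CPM in p52ki replicate 2 and 0.492 in replicate 5, and this limit covers counting error only. Of the 8 genes 7 were present in replicate 5 at 12.6 CPM or more, such as Kif20a at 85.6, Aurka at 84.0 and Kif2c at 70.5. Gtse1, a microtubule-binding protein of G2, was at 6.56 there. Thinned to 4067281 counts, the total of replicate 2, the other libraries had 0 to 2 members at 0 each. Thinning copies a lower read depth only, not the few detected genes of replicate 2, so it cannot show why these members were at 0. Ttk and Gtse1 were also at 2.65 and 1.63 CPM in WT GC replicate 3, against 41.5 to 60.4 in the other two WT libraries. All 8 genes had positive changes from activated to GC cells in p52ki through replicate 5: without it the changes of these 8, and of Kif4 and Tacc3, were negative. Of the exons of Kif20a, 29.3% overlap Cdc23.

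The test of the difference between the 2 stage changes uses the same GC libraries as the comparisons above and adds the activated ones. The change from activated to GC cells was smaller in p52ki than in WT for 41 of 49 members and larger for 8, and was positive in both for 46. The median difference of the changes was -0.91, against -0.35 over all genes tested. Only 2 members passed the test of this difference, Hjurp and Kif20b, or 4.08% of members, against 4.97% of all genes called lower and 0.977% higher, so the count is no higher than for genes in general. The change of Hjurp was -0.42 in p52ki (SE 0.332, adjusted p = 0.371) and 2.23 in WT (SE 0.304, adjusted p = 0.000222), and their difference was -2.65 (SE 0.454, adjusted p = 0.00319). For Kif20b the change was -1.38 in p52ki (SE 0.555, adjusted p = 0.0787) and 1.40 in WT (SE 0.474, adjusted p = 0.0641), and the difference was -2.79 (SE 0.732, adjusted p = 0.0392). Among those that did not pass, Gtse1 had the largest difference, -3.11 (SE 1.7, adjusted p = 0.286), with 0 and 6.56 CPM in p52ki GC cells and 50.7, 1.63 and 41.5 in WT GC cells. Tacc3 differed by -1.77 (SE 0.653, adjusted p = 0.114), Foxm1 by -1.68 (SE 0.933, adjusted p = 0.296), Kif23 by -1.32 (SE 0.413, adjusted p = 0.0683) and Mki67 by -0.57 (SE 0.619, adjusted p = 0.63). Pttg1 differed by 1.06 the other way (SE 0.509, adjusted p = 0.224). Hjurp passed without any 1 library, whereas Kif20b lost its call without any 1 of 9 libraries (adjusted p of 0.0651 to 0.0902) and kept it without WT GC replicate 3 or p52ki GC replicate 5. Limma with sample quality weights called neither (adjusted p of 0.193 and 0.261). With detected genes as a covariate the median difference was 0.04, and Kif20b fell to -1.27 (adjusted p = 0.0941) while Hjurp stayed at -2.19 (adjusted p = 0.00479).

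**Figure D4:**
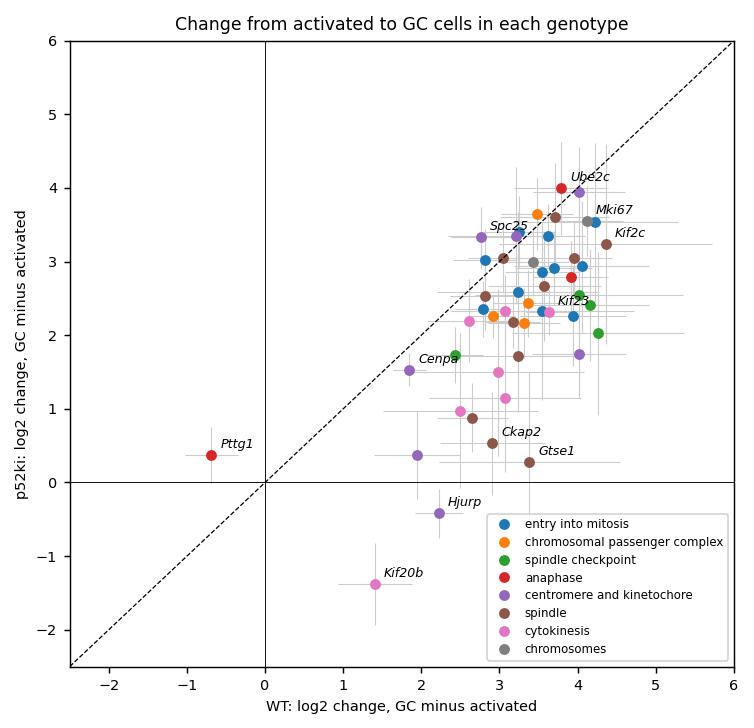
log2 change from activated to GC cells of each mitosis gene in p52ki (vertical) against WT (horizontal), coloured by role, with SE bars; the dashed line marks equal changes. Most genes lie below the line, Hjurp and Kif20b lowest (-0.42 and -1.38 in p52ki, 2.23 and 1.40 in WT), and Pttg1 lies at the left.

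Before the GC stage no member was called between the genotypes by edgeR, but in activated cells most differences were negative. In naive cells no member was called, nor any other gene (0% of all genes), and 1 member had an unadjusted p under 0.05 by edgeR: Nusap1 had 9.86, 7.87 and 5.7 CPM in p52ki, against 13.1, 15.4 and 11.4 in WT (log2 -0.77, SE 0.328, adjusted p = 1). DESeq2 called no member either. The median difference was -0.07. Both groups were apart for 4 members, 3 lower in p52ki (Cenpa, Nusap1 and Ect2; 5.48% of all genes) and Incenp higher (5.21%). In activated cells no member was called by edgeR or DESeq2, against 0.00651% of all genes in either direction, but 2 had an unadjusted p under 0.05 and 43 of 49 differences were negative, with a median of -0.35, against 0 over all genes. All 3 p52ki libraries lay below all 3 WT libraries for 8 members, against 2.95% of all genes (3.15% lay above): Kif11, Tpx2, Hmmr, Kif20a, Kif20b, Kif23, Prc1 and Mki67. Kif11 had 13.2, 15.7 and 6.07 CPM in p52ki, against 22.5, 23.9 and 36.1 in WT (log2 -1.24, SE 0.437, adjusted p = 1), and was called by limma with sample quality weights alone. Birc5 was the other member with an unadjusted p under 0.05, at 10.5, 27.8 and 12.3 CPM in p52ki and 49.4, 17.0 and 36.9 in WT (log2 -1.03, SE 0.43, adjusted p = 1). The WT activated libraries also had a wider range of plasma cell markers, 1950 to 8240 CPM in sum, against 1660 to 3280 in p52ki; the part of this was not tested.

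Levels among the members spanned a wide range. Per kilobase of exon, Cks2, Ube2c and Ccnb2 were the highest in p52ki GC cells, at 441, 80.1 and 63.3 CPM per kb, and Cks2, Ccnb2 and Cdc20 in WT GC cells, at 450, 202 and 159. Anln was the lowest in both, at 0.697 and 3.04. Hjurp ranked 39 of 49 in p52ki GC cells (4.14 CPM per kb) and 26 in WT GC cells (26.7), after rank 6 in WT naive cells (5.72). These ranks rest on the union of annotated exons and so on which transcripts are used.

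Other mitosis genes, a list of 106 further kinetochore, condensin, anaphase-promoting complex and spindle genes, were read beside the members. Of these, 35 rose from activated to GC cells in p52ki, with a median change of 0.91, and 53 in WT, with a median of 1.95; none was called lower. Fbxo5, an inhibitor of the anaphase-promoting complex, changed by 2.71 in p52ki (SE 0.362, adjusted p = 0.000196) and 2.97 in WT (SE 0.346, adjusted p = 7.1e-05). Knl1, the kinetochore scaffold, changed by 2.20 (SE 0.322, adjusted p = 0.000415) and 3.58 (SE 0.32, adjusted p = 1.29e-05). In GC cells 16 were lower in p52ki than in WT, 15.1% of the list, near the 12.2% of all genes, with a median difference of -0.99. Knl1 had 69.5 and 91.9 CPM in p52ki, against 200, 189 and 199 in WT (log2 -1.28, SE 0.336, adjusted p = 0.02), and the condensin subunit Ncapg had 50.9 and 109 in p52ki, against 315, 162 and 303 in WT (log2 -1.70, SE 0.422, adjusted p = 0.0159). Anapc5, a subunit of the anaphase-promoting complex, had 136 and 181 CPM in p52ki, against 448, 225 and 456 in WT (log2 -1.24, SE 0.271, adjusted p = 0.00857), and the kinetochore gene Nsl1 was close to the detection limit in p52ki, at 0.484 and 0.656, against 23.6, 4.68 and 15.8 (adjusted p = 0.00273). Nsl1 and Anapc5 were also the 2 of the list (1.89%, against 4.97% of all genes) that passed the test of the difference between the stage changes.

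The 49 DNA replication genes, which act in S phase, were the second list read beside the members. From activated to GC cells 21 rose (42.9%, against 6.34% of all genes) and 2 fell (4.08%, against 19.3%) in p52ki. In WT 38 rose (77.6%, against 5.8%). Between the genotypes in GC cells 12 were lower in p52ki (24.5%, against 12.2% of all genes), with a median of -1.04. Within a library the summed CPM of the mitosis genes over that of the replication genes was 0.857 and 0.837 in p52ki GC cells and 0.905, 0.897 and 0.859 in WT GC cells. It was 0.312 to 0.364 in p52ki activated cells and 0.372 to 0.452 in WT activated cells, and 0.221 to 0.26 in p52ki naive cells and 0.238 to 0.258 in WT naive cells. The proportion of mitosis to replication genes thus lay between 0.837 and 0.905 in all 5 GC libraries, WT replicate 3 included, while the summed CPM of the mitosis genes ranged from 3440 to 9700. Both p52ki GC values of this proportion lay below all 3 WT GC values, the nearest being 0.857 and 0.859. Over the other mitosis genes the ratio was 0.667 and 0.673 in p52ki GC cells, against 0.822, 0.784 and 0.842 in WT GC cells, also with no overlap. That list was already high in naive cells, at a mean sum of 3360 CPM in p52ki and 3290 in WT. The members had mean sums of 525 and 551 there. A ratio to a list with such a base can fall when both lists fall, and the part of this was not tested.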

How the data were processed

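Sorted B cells gave very little RNA, which was copied by SMART-Seq and read in pairs, per the labels' protocols, which name no molecular identifiers, so counting limits cover counting error only. A count of 0 was taken to allow 3 counts. The authors deposited raw counts per gene; the submitters' processing notes name GRCm38, featureCounts (Subread 1.6.2), SAMtools 1.8 and HISAT2 2.1.0; the strand setting is not given in the sources used here. Groups come from the genotype and cell population in the labels.

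Genes were kept by filterByExpr over the 6 groups (15352 of 55536), scaled by TMM, and fitted by glmQLFit (robust) and glmQLFTest of edgeR 4.0.16 under R 4.3.3, with 1 coefficient per group over all 17 libraries. Unless another tool is named, adjusted p-values are edgeR's, by Benjamini-Hochberg over the 15352 genes of 1 comparison. A gene is called, and said to rise or fall, at an adjusted p under 0.05. Values are TMM-scaled CPM; changes are log2 with their standard error (SE), p52ki minus WT or later minus earlier stage. Gene models are those of GENCODE M21, of the same build, which held all 49 members. The scripts were tested on simulated data.

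The members, role classes, lists (106 other mitosis genes, 49 DNA replication genes, cell type markers) and tests were chosen with earlier results of these data known. Some markers are not reported here and are left out of the sums. Named are 22 landmark members, up to 3 called members per class (the smallest p where none was called), members at 0 and the leading called genes of the other mitosis list; further genes were named after their values were seen. Alternatives were RLE scaling, no filter, DESeq2 1.42.0, limma 3.58.1 with sample quality weights, the compared libraries alone, detected genes as a covariate, a replicate block and each library left out; added after seeing the data were WT GC replicate 3 as the lone WT GC library and thinning to the smallest total. Libraries of a group differed by more than counting error (chi-square per degree of freedom 8.04 to 118). Such a spread cannot tell separate mice from repeated preparations of the same sample. Every library was entered in the fit on its own.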

Additional observations from a re-analysis of the deposited data

Results flagged for a closer look

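Hjurp and Kif20b were picked out because their change from activated to GC cells differed between the genotypes by a test of that difference. For Hjurp the difference, p52ki minus WT, was -2.65 (edgeR, adjusted p = 0.00319), with 34.2 and 34.8 CPM in p52ki GC cells, against 339, 153 and 175 in WT GC cells. For Kif20b it was -2.79 (adjusted p = 0.0392), with 7.03 and 14.8 CPM in p52ki, against 143, 31.0 and 124 in WT. No group has 4 or more libraries, so a single library that stands apart could not be tested for.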

How the results depend on the processing

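Across the alternatives run, 23 to 37 of 49 members were called higher in GC than in activated cells in p52ki and 35 to 48 in WT. Of all genes, 1.02% to 12.8% were called higher in p52ki and 2.62% to 16.6% in WT. None of the members was called lower in WT, but in p52ki 1 was by DESeq2, 1 without p52ki GC replicate 2 and 6 without p52ki GC replicate 5. In the same order, 25.4%, 16.5% and 24.8% of all genes were called lower. Shares of all genes called moved with the setting. Lower in p52ki than in WT GC cells were 12.2% in the main fit, 9.02% with the covariate and 9.18% with the replicate block. Limma with weights and the compared libraries alone gave 0%. For the difference of the GC changes 4.97% were called lower in the main fit, 11.1% by DESeq2 and 0% by limma with weights. The compared libraries alone gave 0.758%, the covariate 5.78% and the replicate block 1.58%. Counts of members that moved by over 1.5 times follow. For p52ki GC against WT GC (10 called) they were 0 by limma with sample quality weights, 0 with the compared libraries alone, 5 with the covariate, 19 with the replicate block, 3 with WT GC replicate 3 alone, and 5 to 24 with 1 library left out. For the difference of the GC changes (2 called) they were 4 by DESeq2, 0 by limma with weights, and 1 with the compared libraries alone, the covariate or the replicate block, and 1 to 15 with 1 library left out. For activated against naive cells in p52ki (1 called) they were 4 without a filter, 7 by DESeq2, 20 by limma with weights, 11 with the compared libraries alone, 0 with the replicate block and 0 to 1 with 1 library left out. The share of all genes called higher there was 0.0847% in the main fit. In the same order it was 0.124%, 0.769%, 5.33%, 2.62%, 0.013% and 0.00653% to 0.0722%. In WT (4 called) the counts were 7 under RLE scaling, 11 without a filter, 17 by DESeq2, 31 by limma with weights, 18 alone, 11 with the covariate, 1 with the replicate block and 0 to 7 with 1 library left out. The share of all genes called higher was 0.254% in the main fit. In the same order it was 0.293%, 0.371%, 1.62%, 6.87%, 2.14%, 0.801%, 0.0977% and 0.0523% to 0.295%. Between genotypes in activated cells limma with weights called 1 lower, against 0.208% of all genes called lower. Thinning gave 1 member at 0 in WT activated replicate 1, WT naive replicate 4 and p52ki naive replicate 2, and 2 in WT naive replicate 3 and p52ki naive replicate 5.

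Signs turned in 17 values of the genes followed singly. Over all 49 members, the difference between GC groups turned for 14 with WT GC replicate 3 alone and 10 with the covariate, and the p52ki change from activated to GC cells for 10 without p52ki GC replicate 5. The difference of the GC changes between genotypes turned for 21 members with the covariate. Fitted changes of genes at 0 in the p52ki GC library left depend on the prior count. In p52ki GC against WT GC, Top2a, Plk1, Ndc80 and Tpx2 were at 0.25, 1.21, 0.67 and 1.11 with the covariate and 0.76, 1.86, 1.26 and 1.78 with WT GC replicate 3 alone, and Plk1 ran from -4.05 to 0.06 with 1 library left out. From activated to GC cells in p52ki, Pttg1 was at -0.19 and Hjurp at 0.21 with the covariate; with 1 library left out Aurka ran from -8.81 to 3.58, Anln from -7.54 to 2.11 and Pttg1 from -0.33 to 0.82. Between genotypes Mki67 ran from -0.38 to 0.74 in naive cells and Mad2l1 from -0.55 to 0.21 in activated cells. The cause was not tested in any of these.

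Replicate numbers were not taken as pairs: same-numbered libraries of a genotype correlated by -0.229 to 0.281, not all above 0.1. Between naive and activated cells alone, same-numbered libraries all correlated positively, by 0.0786 to 0.281, and differently numbered ones by -0.23 to 0.147. Pairing at these stages was thus not excluded, and the replicate block among the alternatives allows for it. Deviations of the 2 p52ki GC libraries from their mean mirror each other, so pairing there cannot be seen. The block between genotypes was a random effect in limma. Under RLE scaling all genes had a median of -0.23 in WT GC against activated cells, instead of -0.13. Depth limits low values most in p52ki GC replicate 2 and WT GC replicate 3, where 3 counts equal 0.727 and 0.611 CPM.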
